A study of Mus musculus with 6 samples.

Results

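The cohesin genes described here were the meiotic subunits Stag3, Rec8, Smc1b and Rad21l and the mitotic subunits Stag1, Stag2, Rad21, Smc1a and Smc3. They were chosen by name as the 4 subunits known from meiosis and the 5 of dividing body cells, which makes 9 of the 55536 Ensembl genes in the files, and each of the 9 was found by its GENCODE M21 symbol. RNA was sequenced from mouse embryonic stem (ES) cells, the pluripotent cells grown from early embryos, with 3 libraries per genotype in the C57BL/6 strain. The Max-KO cells were Max-/-, which is to say without a working copy of Max, whose protein pairs with MYC and other factors to read E-boxes in DNA, and the WT cells were wild type. Levels are given in FPKM, which corrects fragment numbers for transcript length and library size, and log2 differences below are Max-KO minus WT on log2(FPKM + 1). Nothing in the labels says whether the libraries of a genotype came from separate cultures or clones, so the p-values speak only of the spread among these 6 libraries.

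Cohesin is a ring of an SMC1 and an SMC3 protein closed by a kleisin, with a STAG protein bound to the kleisin, and it holds sister chromatids together and shapes chromatin loops. In germ cells that enter meiosis, SMC1B takes the place of SMC1A, REC8 or RAD21L that of RAD21, and STAG3 that of STAG1 or STAG2, while SMC3 is common to both kinds of ring. In mice the meiotic rings build the chromosome axes along which homologous chromosomes pair, and cleavage of REC8 lets chromosomes separate at the meiotic divisions.

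The libraries held an estimated 21.2 to 28.9 M fragments in Max-KO and 22.5 to 25.5 M in WT, read from the step between low FPKM values. Summed FPKM was 645169 to 658361 in Max-KO and 743406 to 774405 in WT, and the median log2 difference of all 14661 genes tested was 0.21. Max itself was listed at 35.8 to 43.4 FPKM in Max-KO and 41.6 to 50.2 FPKM in WT (log2 difference -0.17, limma adjusted p = 0.168). The labels do not say which bases of Max were deleted, so an FPKM over the whole gene does not check the genotype. The ES cell markers summed to 2701 to 2787 FPKM in Max-KO and 2189 to 2266 FPKM in WT, and none of the 7 was listed at 0 throughout. Of the 6 germ cell markers, 5 had at least 1 FPKM on average in both genotypes and all 5 rose, where 43.0% of all genes tested did, and the 6 summed to 879 to 932 FPKM in Max-KO against 27.0 to 33.0 FPKM in WT. Of the 7 fibroblast feeder markers, 2 reached that level in both genotypes and 1 of them rose, near that share, and the 7 summed to 8.97 to 11.2 FPKM in Max-KO and 8.07 to 8.36 FPKM in WT, with Twist2 at 0 in 2 Max-KO libraries and 1 WT library. Of 6 primitive endoderm markers, none reached that level in WT, and the 6 summed to 3.33 to 6.96 FPKM in Max-KO and 0.91 to 1.47 FPKM in WT. Gata4, Sox17 and Pdgfra reached that level only in Max-KO. Pdgfra, also a feeder marker, had 1.47, 1.15 and 1.06 FPKM there, against 0.04, 0.07 and 0.05 FPKM in WT. Of 5 trophoblast markers, 3 reached that level in both genotypes and 1 of them rose, again near that share. The 5 summed to 67.2 to 70.2 FPKM in Max-KO and 58.1 to 65.1 FPKM in WT. Hand1, which rose, had 6.78, 5.46 and 4.68 FPKM in Max-KO, against 1.02, 1.35 and 1.02 FPKM in WT. Elf5, at that level only in Max-KO, had 2.43, 1.20 and 2.94 FPKM there, against 0.22, 0.44 and 0.07 FPKM in WT. Krt8 and Tfap2c, which made up most of the sum, did not pass the test, and Cdx2 was not tested. The part of other cell types in the results below was not tested.

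WT replicate 3 stood apart from the other WT libraries. Across the tested genes, its deviation from the mean of WT replicates 1 and 2 had a Spearman rho of 0.42 with the GC content of the transcript and -0.19 with its length. Among cohesin subunits it was low for Smc3, Smc1b, Smc1a and Stag2, so each of these is given with and without it.

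All 4 meiotic subunits had more RNA in every Max-KO library than in any WT library. Stag3 and Smc1b, which WT cells expressed at a low level, rose 17.9-fold and 16.3-fold, and Rec8 rose 2.35-fold. Rad21l went above the expression filter only in Max-KO. Among the mitotic subunits Rad21, Stag1 and Stag2 rose 1.75-fold, 2.02-fold and 1.44-fold, and Smc3 and Smc1a did not pass the test. Of the 8 subunits that averaged 1 FPKM or more in both genotypes, 6 rose (limma adjusted p under 0.05) and none fell, where 66.2% of all genes tested passed, 43.0% higher and 23.2% lower. Without WT replicate 3 the same 6 rose, where 64.3% of all genes passed, 41.6% higher and 22.6% lower. In 7 of these 8 the libraries did not overlap, with Max-KO higher, as in 46.3% of all genes tested, while 25.7% were lower without overlap. Under other scalings the share of all calls that were higher was 51.4% (median-ratio), 46.7% (quantile) and 76.9% (TPM) against 64.9% as deposited, and the median of all genes moved to 0.04, -0.02 and 0.41. In bulk RNA, more cells that express a gene and more RNA per cell cannot be told apart.

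**Figure D1:**
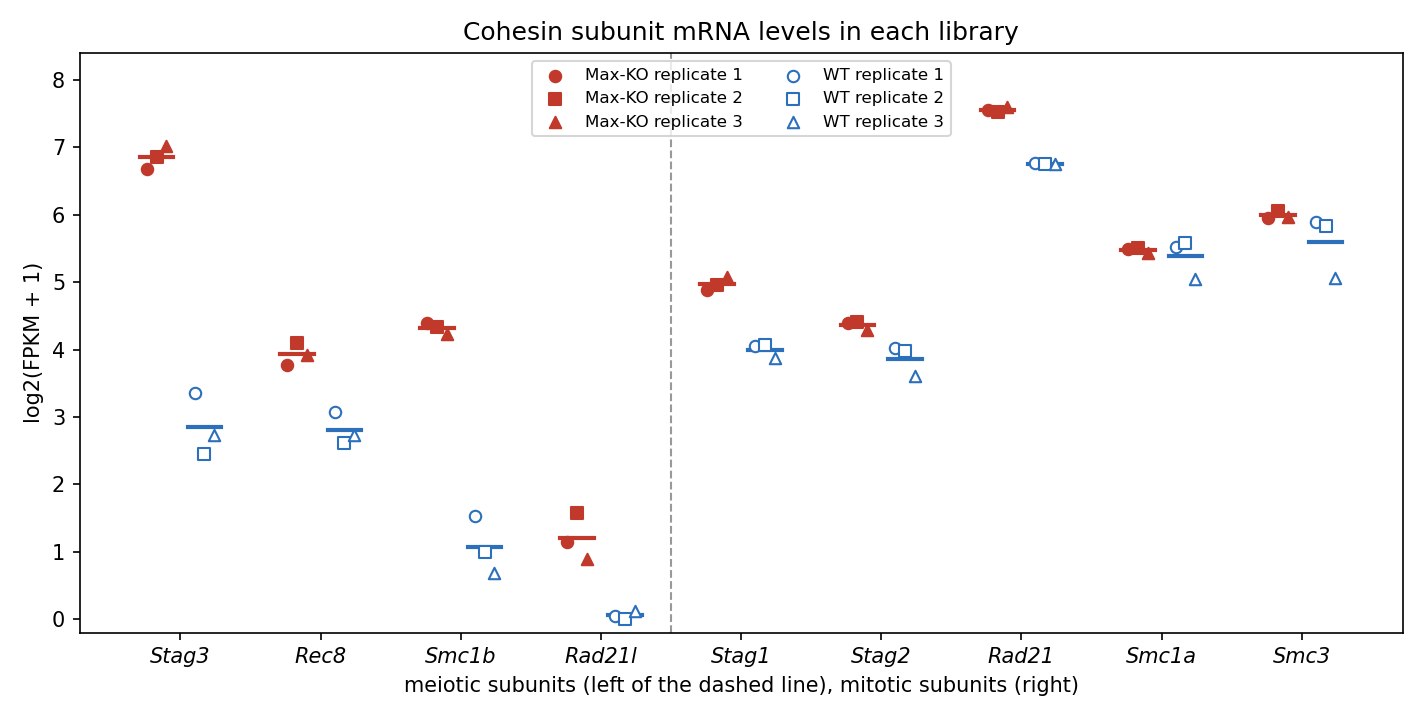
Level of the 9 cohesin genes in each library as log2(FPKM + 1), with Max-KO left of WT, 1 symbol per library and a line at the mean of the 3 log2 values of a genotype. The meiotic subunits stand apart by genotype, Stag3 at 102 to 129 FPKM in Max-KO and 4.45 to 9.21 FPKM in WT, while the Smc1a libraries of both genotypes overlap.

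Stag3 (ENSMUSG00000036928, GRCm38 chr5:138280240-138312393, plus strand) encodes the STAG subunit of meiotic cohesin. It had 102, 115 and 129 FPKM in Max-KO, against 9.21, 4.45 and 5.65 FPKM in WT. The lowest Max-KO library lay far above the highest WT library. The means were 115 ± 13.4 FPKM in Max-KO and 6.44 ± 2.48 FPKM in WT (SD, n = 3 each), with a log2 difference of 4.01 ± 0.23 (SE, limma adjusted p = 2.4e-05). That was rank 68 in size of increase among the 14661 genes tested.

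Smc1b (ENSMUSG00000022432, chr15:85064689-85131964, minus strand) encodes the meiotic SMC1 protein. It had 19.9, 19.2 and 17.7 FPKM in Max-KO, against 1.89, 0.99 and 0.61 FPKM in WT. The Max-KO libraries lay close together. The WT libraries were low, at an estimated 181.8, 84.2 and 53.6 fragments for the longest transcript. The means were 18.9 ± 1.14 FPKM in Max-KO and 1.16 ± 0.657 FPKM in WT (SD, n = 3 each), a log2 difference of 3.25 ± 0.21 (SE, limma adjusted p = 1.99e-05) and rank 145. Against WT replicates 1 and 2 alone the increase was 13.2-fold, and the log2 difference 3.05 (limma adjusted p = 5.89e-05).

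Rec8 (ENSMUSG00000002324, chr14:55618037-55625395, plus strand) encodes the kleisin that separase cuts in meiosis. It had 12.7, 16.1 and 14.1 FPKM in Max-KO, against 7.44, 5.14 and 5.67 FPKM in WT. Its WT libraries overlapped those of Stag3, and its Max-KO libraries were far below those of Stag3. The means were 14.3 ± 1.71 FPKM in Max-KO and 6.08 ± 1.20 FPKM in WT (SD, n = 3 each), a log2 difference of 1.12 ± 0.14 (SE, limma adjusted p = 0.000447) and rank 1729. WT replicate 1 was the highest WT library for Stag3, Rec8 and Smc1b alike.

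Rad21l (ENSMUSG00000074704, chr2:151645404-151668533, minus strand) encodes the other meiotic kleisin, which acts early in prophase. It had 1.21, 1.97 and 0.85 FPKM in Max-KO, against 0.03, 0 and 0.09 FPKM in WT. For its longest transcript that stood for an estimated 41.8, 57.8 and 34.0 fragments in Max-KO, against 1.1, 0 and 2.9 fragments in WT. It was at the edge of detection in WT, so no fold is given, and even in Max-KO it was the lowest of the 9 subunits. The log2 difference was 1.15 ± 0.19 (SE, limma adjusted p = 0.00154), and under quantile normalization it was 0.52 and no longer passed (limma adjusted p = 0.0754). With a pseudocount of 0.1 in place of 1 it was 3.34.

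The promoter windows of the 4 meiotic subunits are shown with that of Smc1a, the mitotic partner gene of Smc1b, because all 4 meiotic genes were higher in every Max-KO library while the Smc1a libraries of the genotypes overlapped. They run from 250 bases before to 50 bases after the RefSeq start and come from the RefSeq table of GRCm38.p6, read 5′ to 3′ on the gene's strand. The windows are chr5:138280259-138280558 (plus) for Stag3, chr15:85131908-85132207 (minus) for Smc1b, chr14:55617916-55618215 (plus) for Rec8, chr2:151668484-151668783 (minus) for Rad21l and chrX:152016178-152016477 (plus) for Smc1a. Capitals mark CACGTG, the E-box read by MAX dimers, and GCGGGA, part of the sequence read by E2F factors. GCGGGA is marked on either strand (TCCCGC on the other one), with the longer GCGGGAAA (TTTCCCGC) in capitals whole.
Stag3: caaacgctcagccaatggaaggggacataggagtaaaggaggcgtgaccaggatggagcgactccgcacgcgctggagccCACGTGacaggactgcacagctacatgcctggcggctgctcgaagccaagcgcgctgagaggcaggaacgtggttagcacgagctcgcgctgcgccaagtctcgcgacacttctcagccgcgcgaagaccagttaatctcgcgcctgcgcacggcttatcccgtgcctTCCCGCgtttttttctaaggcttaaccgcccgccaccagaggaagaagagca
Smc1b: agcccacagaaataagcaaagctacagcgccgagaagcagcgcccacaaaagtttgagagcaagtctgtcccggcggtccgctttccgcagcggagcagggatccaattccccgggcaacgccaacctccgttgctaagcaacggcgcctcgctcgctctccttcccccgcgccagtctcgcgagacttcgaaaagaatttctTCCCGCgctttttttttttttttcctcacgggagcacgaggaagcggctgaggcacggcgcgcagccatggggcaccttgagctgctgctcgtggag
Rec8: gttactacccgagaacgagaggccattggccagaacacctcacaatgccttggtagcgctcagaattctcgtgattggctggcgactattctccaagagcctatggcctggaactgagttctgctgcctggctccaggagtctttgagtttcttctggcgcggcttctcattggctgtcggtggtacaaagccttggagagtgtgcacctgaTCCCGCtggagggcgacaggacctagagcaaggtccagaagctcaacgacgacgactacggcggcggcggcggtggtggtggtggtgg
Rad21l: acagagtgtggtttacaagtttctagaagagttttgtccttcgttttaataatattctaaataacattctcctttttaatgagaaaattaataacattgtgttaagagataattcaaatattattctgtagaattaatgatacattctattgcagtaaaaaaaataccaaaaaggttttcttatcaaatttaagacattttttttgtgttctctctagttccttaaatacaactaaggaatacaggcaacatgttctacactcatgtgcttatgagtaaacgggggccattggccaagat
Smc1a: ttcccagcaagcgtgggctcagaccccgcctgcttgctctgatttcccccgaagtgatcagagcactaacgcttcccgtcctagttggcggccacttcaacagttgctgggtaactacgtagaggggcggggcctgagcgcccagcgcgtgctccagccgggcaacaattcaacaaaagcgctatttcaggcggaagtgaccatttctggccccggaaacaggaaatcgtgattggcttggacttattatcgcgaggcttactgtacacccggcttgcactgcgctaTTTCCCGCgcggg

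The table held 7 of the 9 subunits, all but Rad21 and Stag2. The E-box stood in 1 of the 7 windows, that of Stag3, where it began 170 bases before the start, and in 7.15% of all 32851 windows in the table. GCGGGA stood in 6 of the 7 windows and in 6562 of the 32851. It began 2 bases before the start in Stag3, 38 in Rec8, 47 in Smc1b and 15 in Stag1, and in Smc1a at position 40, counting the start as base 1. Smc3 had it 116 bases before the start and at position 30. The Smc3 window was chr19:53600146-53600445 and that of Stag1 chr9:100643198-100643497 (plus strand for both). The RefSeq start in the Stag1 window lies inside the GENCODE gene, which begins at chr9:100597798. That also holds for Rec8, whose GENCODE gene begins at chr14:55618037, and, by a few bases, for Smc1b, which begins at chr15:85131964. The whole Stag3 window, its E-box included, lies inside the GENCODE gene, which begins at chr5:138280240. The longer GCGGGAAA, which contains GCGGGA, stood in Stag1 and Smc1a and in 1.07% of all windows. The Rad21l window held none of these words, and its GC content was 29.0%, against 58.3% to 73.7% in the other 6 windows and a median of 52.7% over all windows. GCGGGA was thus in windows of genes that rose and of Smc1a and Smc3, which did not pass the test. The E-box was only in the window of Stag3, which rose.

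**Figure D2:**
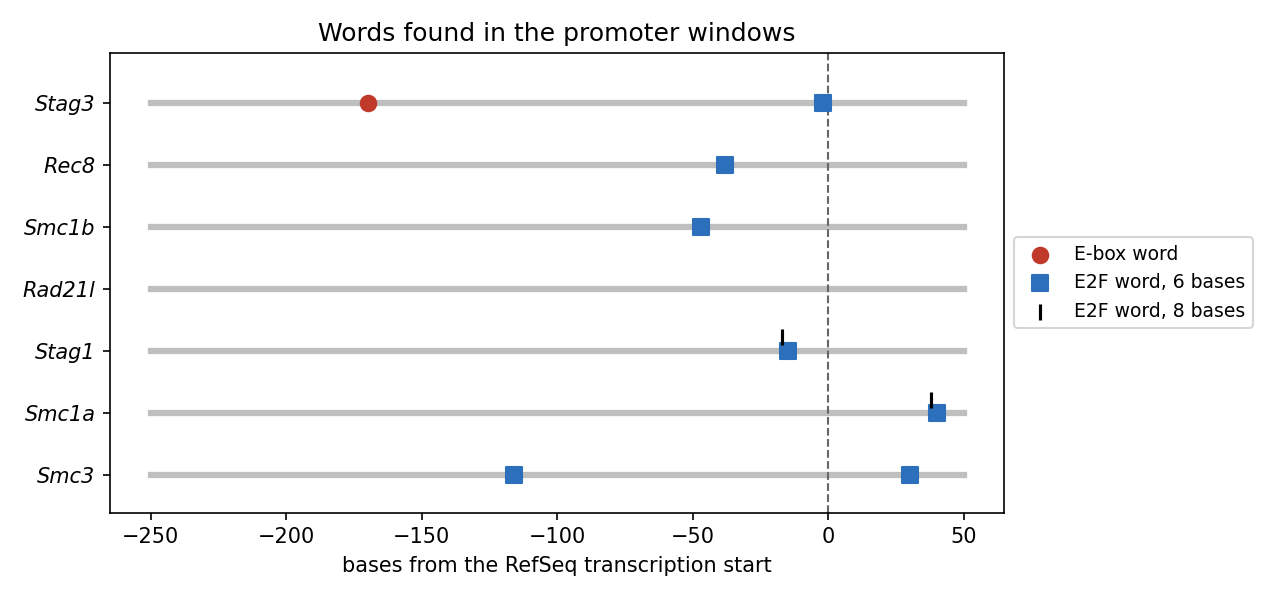
Position of the searched words in the promoter windows of 7 cohesin genes, in bases from the RefSeq start, with meiotic genes above mitotic ones and 1 marker per word at its first base; the E2F words are GCGGGA (squares) and GCGGGAAA (ticks). Only the Stag3 window of these 7 holds the E-box, and the Rad21l window is empty.

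Among the mitotic subunits, Rad21 (ENSMUSG00000022314, chr15:51962240-51991747, minus strand), the kleisin of mitotic cohesin, was the most abundant subunit in both genotypes. It had 186, 183 and 194 FPKM in Max-KO, against 108, 107 and 107 FPKM in WT. The genotypes were well apart, and WT replicate 3 was at 99.1% of the mean of the other WT libraries. The means were 188 ± 5.30 FPKM in Max-KO and 107 ± 0.94 FPKM in WT (SD, n = 3 each), 1.75-fold higher, with a log2 difference of 0.80 ± 0.05 (SE, limma adjusted p = 1.32e-05).

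Stag1 (ENSMUSG00000037286, chr9:100597798-100959375, plus strand) encodes the STAG subunit tied in human cells mainly to telomere cohesion. It had 28.5, 30.01 and 32.6 FPKM in Max-KO, against 15.6, 15.8 and 13.6 FPKM in WT. Every Max-KO library was well above the WT libraries. The increase was 2.02-fold, with means of 30.4 ± 2.07 FPKM in Max-KO and 14.99 ± 1.20 FPKM in WT (SD, n = 3 each), with a log2 difference of 0.97 ± 0.08 (SE, limma adjusted p = 7.53e-05).

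Stag2 (ENSMUSG00000025862, chrX:42149317-42277185, plus strand), which encodes the STAG subunit tied in human cells mainly to centromere cohesion, had 19.97, 20.3 and 18.7 FPKM in Max-KO, against 15.2, 14.7 and 11.2 FPKM in WT. The genotypes did not overlap, and WT replicate 3 was the lowest library. The increase was 1.44-fold over all WT libraries and 1.32-fold over WT replicates 1 and 2, with log2 differences of 0.50 ± 0.12 (SE, limma adjusted p = 0.00769) and 0.37 (limma adjusted p = 0.00413). The call did not hold with a correction for GC content and length (0.04, limma adjusted p = 0.553) or under quantile normalization (0.27, limma adjusted p = 0.0574).

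Smc3 (ENSMUSG00000024974, chr19:53600398-53645833, plus strand), shared by both kinds of ring, had 60.9, 65.6 and 61.4 FPKM in Max-KO, against 58.3, 56.0 and 32.5 FPKM in WT. Every Max-KO library was above every WT library, but WT replicate 3 was at 56.9% of the mean of the other WT libraries. The log2 difference was 0.39 ± 0.22 (SE, 95% interval -0.13 to 0.92, limma adjusted p = 0.152) over all libraries. Without WT replicate 3 it was 0.13 ± 0.05 (SE, limma adjusted p = 0.0725), a 1.10-fold difference.

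Smc1a (ENSMUSG00000041133, chrX:152016428-152062694, plus strand), the mitotic SMC1 gene, had 43.9, 44.5 and 42.2 FPKM in Max-KO, against 45.2, 47.1 and 32.1 FPKM in WT. The genotypes overlapped, and WT replicate 3 alone was below the Max-KO libraries. The log2 difference was 0.09 ± 0.14 (SE, 95% interval -0.24 to 0.42, limma adjusted p = 0.594). Without WT replicate 3 the sign turned, to -0.08 ± 0.05 (SE, limma adjusted p = 0.199).

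**Figure D3:**
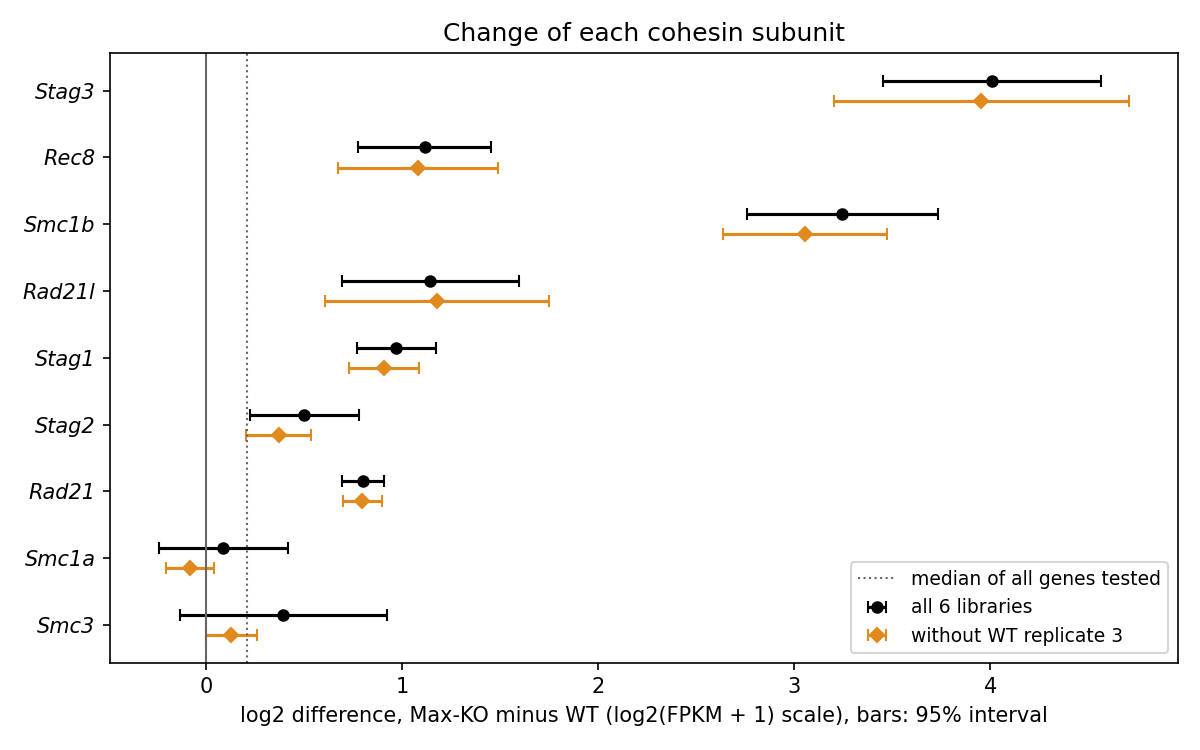
Log2 difference, Max-KO minus WT on log2(FPKM + 1), of the 9 subunits with 95% intervals from limma, for all 6 libraries (black) and without WT replicate 3 (orange), with the median of all genes, 0.21, as a dotted line. Stag3 at 4.01 and Smc1b at 3.25 lie far to the right, and Smc1a is at 0.09 with WT replicate 3 and -0.08 without it.

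Within the STAG and SMC1 genes, the share of the meiotic gene was higher in every Max-KO library than in any WT library. Of the summed FPKM of the 3 STAG genes, Stag3 made up 67.8%, 69.5% and 71.5% in Max-KO, against 23.0%, 12.8% and 18.6% in WT. It had the largest STAG share in every Max-KO library and the smallest in every WT library. The means were 69.6 ± 1.87% in Max-KO and 18.1 ± 5.14% in WT (SD, n = 3 each; exact 2-sided permutation p = 0.10, the smallest that 3 against 3 allows, and 0.125 adjusted over the 5 shares compared). Stag1, whose own level rose, made up 18.4 ± 0.454% in Max-KO and 42.97 ± 3.44% in WT (SD, n = 3 each; exact 2-sided permutation p = 0.10, adjusted 0.125), and the summed STAG level was 165 ± 14.7 FPKM in Max-KO and 35.1 ± 4.82 FPKM in WT (SD, n = 3 each).

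Of the summed FPKM of Smc1a and Smc1b, Smc1b made up 31.2%, 30.2% and 29.5% in Max-KO, against 4.02%, 2.06% and 1.87% in WT. The genotypes were well apart, and Smc1a remained the larger of the pair in all 6 libraries. The means were 30.3 ± 0.863% in Max-KO and 2.65 ± 1.19% in WT (SD, n = 3 each; exact 2-sided permutation p = 0.10, adjusted 0.125).

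Among the kleisins, Rad21 rose as well. Rec8 made up 6.31%, 7.98% and 6.77% of summed kleisin FPKM in Max-KO, against 6.42%, 4.59% and 5.05% in WT. Those libraries overlapped, and the means were 7.02 ± 0.863% in Max-KO and 5.35 ± 0.955% in WT (SD, n = 3 each; exact 2-sided permutation p = 0.20, adjusted 0.20). Rad21l stayed under 1% in every library, at 0.604%, 0.979% and 0.408% in Max-KO against 0.0259%, 0% and 0.0801% in WT (exact 2-sided permutation p = 0.10, adjusted 0.125). Rad21 supplied most kleisin RNA in both genotypes.

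**Figure D4:**
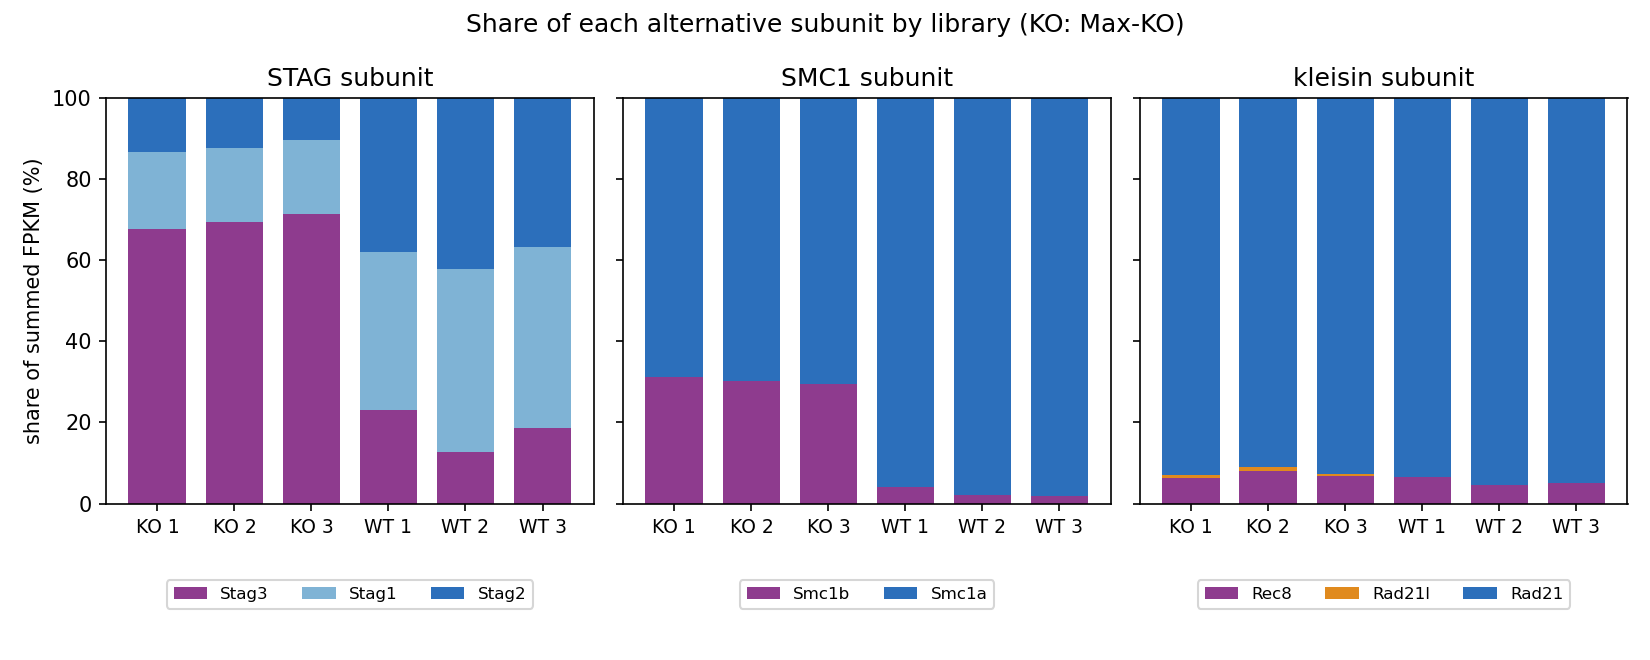
Share of summed FPKM, in percent, of each STAG, SMC1 and kleisin gene in each of the 6 libraries as stacked bars from 0, with Max-KO left of WT. Stag3 takes 67.8% to 71.5% of STAG FPKM in Max-KO and 12.8% to 23.0% in WT, while Rad21 takes most of the kleisin FPKM throughout.

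FPKM is scaled to length, so the levels of the subunits could be ordered within a genotype. In Max-KO the order of mean FPKM was Rad21, Stag3, Smc3, Smc1a, Stag1, Stag2, Smc1b, Rec8 and Rad21l, and of neighbours in it only Stag2 and Smc1b had overlapping libraries. In WT the order was Rad21, Smc3, Smc1a, Stag1, Stag2, Stag3, Rec8, Smc1b and Rad21l. There Smc3 overlapped Smc1a, Stag1 overlapped Stag2 and Stag3 overlapped Rec8, and without WT replicate 3 only Stag3 and Rec8 did. Stag3 was sixth in WT and second in Max-KO.

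Ratios within a library set the subunits against each other. The Stag3 to Rec8 ratio was 8.10 ± 0.989 in Max-KO and 1.03 ± 0.189 in WT, and the Smc1b to Rec8 ratio was 1.34 ± 0.204 in Max-KO and 0.185 ± 0.0735 in WT (SD, n = 3 each; exact 2-sided permutation p = 0.10 for each, adjusted 0.15 over 6 ratios). The Stag3 to Smc1b ratio was 6.12 ± 1.09 in Max-KO and 6.21 ± 2.65 in WT (SD, n = 3 each; exact 2-sided permutation p = 1.0, adjusted 1.0), and its WT libraries spread widely. Stag3 to Smc3 was 1.84 ± 0.224 in Max-KO and 0.137 ± 0.0506 in WT (SD, n = 3 each; exact 2-sided permutation p = 0.10, adjusted 0.15). Rad21 to Smc3 was 3.002 ± 0.187 in Max-KO and 2.35 ± 0.806 in WT (SD, n = 3 each; exact 2-sided permutation p = 0.40, adjusted 0.48), and Smc1a to Smc3 was 0.695 ± 0.0223 in Max-KO and 0.868 ± 0.108 in WT (exact 2-sided permutation p = 0.10, adjusted 0.15).

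**Figure D5:**
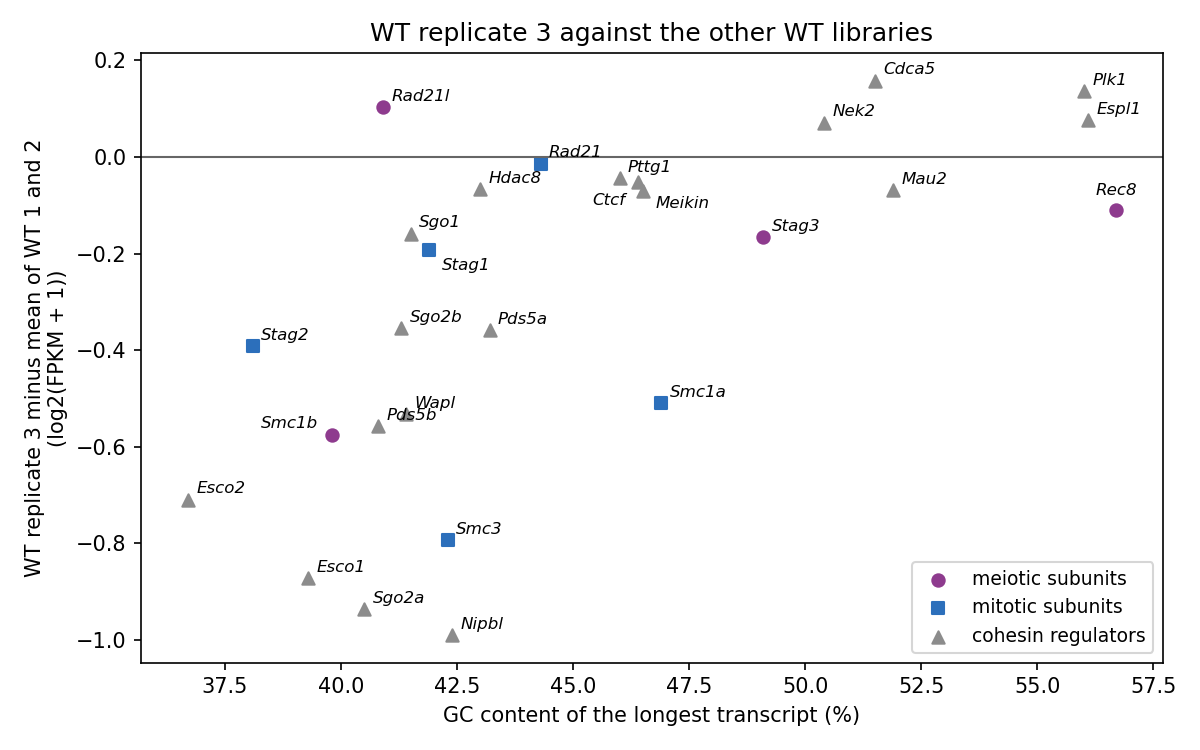
Deviation of WT replicate 3 from the mean of WT replicates 1 and 2, in log2(FPKM + 1), against the GC content of the longest transcript, in percent, for the 27 subunits and regulators. Smc3, at -0.79, and Smc1b, at -0.58, are the lowest subunits, and Rad21 lies at -0.01.

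Listed beside the subunits were the genes that load, acetylate, release, cut and protect cohesin, together with Ctcf, Plk1 and Nek2. Of 18 such regulators, 16 averaged 1 FPKM or more in both genotypes, and of these 6 rose and 3 fell (limma adjusted p under 0.05), near the 43.0% and 23.2% of all genes. Over all 18, 4 fell, where 3403 of the 14661 genes tested did. Without Max-KO replicate 1 or without WT replicate 1, 2 fell, where 3097 and 3074 of all genes did. Of the loaders, Nipbl, which loads the ring onto DNA, had 36.0, 36.7 and 31.1 FPKM in Max-KO, against 14.3, 17.8 and 7.52 FPKM in WT, where replicate 3 was the lowest by far (log2 difference 1.40 ± 0.29, SE, limma adjusted p = 0.00545). Without that library it was 1.07. Mau2, its partner, rose (0.33, limma adjusted p = 0.00748), a call lost under median-ratio scaling (0.14, limma adjusted p = 0.146) and quantile normalization (0.14, limma adjusted p = 0.153).

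In the acetylation cycle, Esco1, which acetylates SMC3, had 15.5, 15.9 and 15.5 FPKM in Max-KO, against 10.1, 9.70 and 4.95 FPKM in WT (0.90, limma adjusted p = 0.0123). Without WT replicate 3 the Esco1 difference was 0.61, and with the GC and length correction it was 0.55. Hdac8, which removes that mark, rose by 0.83 (limma adjusted p = 0.000803), or by 0.45 under quantile normalization. Esco2, the S-phase acetyltransferase, was at 0.07 and turned to -0.17 without WT replicate 3 (limma adjusted p = 0.0345) and to -0.37 with the GC and length correction (limma adjusted p = 0.016).

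Of the release and stabilization genes, Pds5b rose (0.43, limma adjusted p = 0.0393), a call lost without any 1 of the Max-KO libraries (limma adjusted p = 0.0822 to 0.101), and without WT replicate 3 its difference was 0.25. The Pds5b call was also lost with the GC and length correction (0.054, limma adjusted p = 0.655), median-ratio scaling (0.25, limma adjusted p = 0.164), quantile normalization (0.18, limma adjusted p = 0.264), no filter (limma adjusted p = 0.0793) and limma without trend and robust moderation (limma adjusted p = 0.0536). Wapl, which opens the ring, Pds5a and Cdca5, which encodes sororin, did not pass, at 0.31, 0.32 and -0.19 (limma adjusted p = 0.103, 0.0825 and 0.0688). Pds5a passed without Max-KO replicate 1 (limma adjusted p = 0.0382) or WT replicate 2 (limma adjusted p = 0.0285), and Cdca5 without Max-KO replicate 2 (limma adjusted p = 0.0362). Under TPM Wapl and Pds5a passed as higher (0.53 each, limma adjusted p = 0.0257 and 0.0156), and Cdca5 passed as lower under median-ratio scaling (-0.38, limma adjusted p = 0.00591) and quantile normalization (-0.22, limma adjusted p = 0.0398). Ctcf, which sets loop boundaries with cohesin, rose by 0.32 (limma adjusted p = 0.00087), a call lost under median-ratio scaling (0.13, limma adjusted p = 0.053). The cleavage genes Espl1, which encodes separase, and Pttg1, which encodes its inhibitor securin, fell, with log2 differences of -0.35 (limma adjusted p = 0.0209) and -0.38 (limma adjusted p = 0.00245). The Espl1 call was lost without WT replicate 3 (limma adjusted p = 0.0582), WT replicate 1 (limma adjusted p = 0.0595), Max-KO replicate 1 (limma adjusted p = 0.0641) or Max-KO replicate 3 (limma adjusted p = 0.0647). It was also lost with the GC and length correction (-0.16, limma adjusted p = 0.221) and under TPM (-0.14, limma adjusted p = 0.265), where Pttg1 lost its call too (-0.17, limma adjusted p = 0.0623). Plk1, a mitotic kinase, fell as well (-0.35, limma adjusted p = 0.00127), but with the GC and length correction it was at -0.050 and did not pass (limma adjusted p = 0.286). Nek2, another mitotic kinase, was at -0.09 (limma adjusted p = 0.194), and passed as lower under median-ratio scaling (-0.28, limma adjusted p = 0.00521) and quantile normalization (-0.17, limma adjusted p = 0.0305).

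Among the protectors of centromeric cohesin, Meikin, a meiosis-specific kinetochore protein, had 3.10, 3.31 and 2.37 FPKM in Max-KO, against 0.06, 0.26 and 0.10 FPKM in WT. It passed the filter only through Max-KO (log2 difference 1.78, limma adjusted p = 5.72e-05), and with a pseudocount of 0.1 the difference was 3.73. Sgo2a, the shugoshin that shields REC8 in mouse meiosis, had 18.1, 19.1 and 19.0 FPKM in Max-KO, against 26.1, 26.8 and 13.3 FPKM in WT. WT replicate 3 alone was below the Max-KO libraries, and the log2 difference was -0.16 (limma adjusted p = 0.592) with it and -0.48 (limma adjusted p = 0.000924) without it. Sgo2b passed the filter only through WT and was lower (-0.46, limma adjusted p = 0.0435), a call absent once Max-KO replicate 1 or 2 was left out, or WT replicate 1 or 2 (limma adjusted p = 0.0837 to 0.134), and absent under TPM (limma adjusted p = 0.0965) and with no filter (limma adjusted p = 0.0685). Sgo1, the mitotic shugoshin, was at 0.06 (limma adjusted p = 0.475), passing as lower with the GC and length correction (-0.16, limma adjusted p = 0.0335) and as higher under TPM (0.27, limma adjusted p = 0.0241).

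The meiotic subunits lay on different chromosomes, whose tested genes had median log2 differences of 0.15 (chromosome 5, Stag3), 0.31 (chromosome 14, Rec8), 0.09 (chromosome 15, Smc1b) and 0.28 (chromosome 2, Rad21l). Gpc2, which starts 235 bases from Stag3 on the other strand, had 14.1, 14.8 and 15.6 FPKM in Max-KO, against 6.33, 7.71 and 5.99 FPKM in WT (log2 difference 1.05, limma adjusted p = 0.000139). Ribc2, which starts 114 bases from Smc1b on the other strand, had 0.87, 1.11 and 0.97 FPKM in Max-KO, against 0.11, 0 and 0.04 FPKM in WT, under the filter for testing. Both close neighbours were thus higher in every Max-KO library. The labels do not state whether fragments were counted by strand.

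Not every neighbour moved that way. Ipo4, whose annotation ends 5 bases from Rec8 on the other strand, had 36.8, 41.3 and 36.7 FPKM in Max-KO, against 54.6, 60.5 and 63.2 FPKM in WT, and fell (-0.62, limma adjusted p = 0.000384). Irf9, on the other side of Rec8, rose by 0.77 (limma adjusted p = 0.00132). Fam118a beside Smc1b was at 0.04 (limma adjusted p = 0.666). Snph and Tmem74b beside Rad21l stayed at or under 0.33 FPKM in every library, as did Pvrig beside Stag3 apart from 0.39 FPKM in Max-KO replicate 1, and none of the 3 was tested.

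Over the 6 libraries, the genes most like each meiotic subunit in log2(FPKM + 1) were Trmt12 and Reep3 for Stag3 (Pearson r = 0.999 for each), Pitpnc1 and Prkx for Smc1b (1.00 and 1.00), Exd2 and Bicd2 for Rec8 (0.998 and 0.997) and Malrd1 and D17H6S53E for Rad21l (0.998 for each). These are descriptions with no test, since the genotypes set most of the spread. A total of 2523 genes had r over 0.95 with Stag3, 2689 with Smc1b, 1232 with Rec8 and 737 with Rad21l.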

How the data were processed

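RNA sequencing values of 3 Max-KO and 3 WT libraries were used. The authors deposited FPKM per gene with 2 decimals; per the submitters' processing notes FastQC, HISAT2 2.1.0, RSEM and DESeq 1.26.0 were named, with build GRCm38.p6 and no stated role or order. Of 56689 identifiers, 55536 were Ensembl genes, all with a GENCODE M21 symbol, and 1153 were assembled loci, which were left out. A count test does not suit FPKM and was not run.

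The 14661 genes that averaged 1 FPKM or more in either genotype were tested on log2(FPKM + 1) in limma 3.58.1, run under R 4.3.3 (2-sided, robust moderation with a trend, genotype only, Benjamini-Hochberg adjusted over all of them). Log2 differences are Max-KO minus WT and understate the change of low genes. Shares and ratios used exact permutation tests in scipy 1.17.1 with Python 3.11.15, pandas 2.3.3 and numpy 2.4.6. The fit was tested on simulated data.

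Depth is not stated. It was estimated from low FPKM values, 75.0% to 79.1% of which lay within 0.15 of a whole multiple of a step chosen on the same values.

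The members and lists were chosen with earlier results of these data known. The genes named are all subunits and regulators, the 3 called genes of each further list with the largest change and the largest opposite one, the nearest protein-coding neighbours of meiotic subunits, and the most alike genes. Alternatives were a pseudocount of 0.1, other filters, median-ratio, TPM and quantile scaling, a GC and length correction, limma without moderation options, a replicate block and leaving out each library.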

Additional observations from a re-analysis of the deposited data

How the results depend on the processing

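Of 267 alternatives of the main results, 257 were counted as the same, and of 269 for single regulators, 220 were. For log2 differences that meant the same direction and side of the threshold, and for counts a value within 1.5 times. For shares it meant a change smaller than the larger SD of a genotype, or the same sign for a log2 ratio. The numbers of meiotic and mitotic subunits called lower, 0 in every fit, are among the 267. Stag3, Rec8, Smc1b, Stag1 and Rad21 rose in all 15 alternatives, with log2 differences of 3.81 to 4.27, 0.82 to 1.44, 2.88 to 4.04, 0.67 to 1.19 and 0.61 to 1.02. Rad21l was at 0.52 under quantile normalization and at 3.34 with a pseudocount of 0.1, and had no value under the filter on the mean of all 6 libraries, like Sgo2b. Stag2 was at 0.043 with the GC and length correction and, after quantile normalization, 0.27. Smc1a turned to -0.004 with that correction and -0.10 under median-ratio scaling, and ranged from -0.081 to 0.19 with 1 library left out. Regulators called higher were 4 under median-ratio scaling against 7, and those called lower were 1 under TPM against 4 and 2 to 5 with 1 library left out. Of all 14661 genes tested, 4890 were called higher under median-ratio scaling against 6300, and 2365 lower under TPM against 3403. With 1 library left out, 3074 to 3318 of them were called lower. Esco2 turned to -0.37 (GC and length) and -0.12 (median-ratio) and ranged from -0.17 to 0.19 with 1 library left out. Wapl and Pds5a turned to -0.014 each with GC and length, and Sgo1 to -0.16, with -0.12 (median-ratio) and -0.14 (quantile). Under TPM Cdca5 turned to 0.021, Sgo2a to 0.042 and Nek2 to 0.12, and Sgo2a ranged from -0.48 to 0.002 with 1 library left out. The cause was not tested. Same-numbered libraries did not deviate together (r = -0.001, 0.016 and 0.086), so the numbers give no pairing. With a replicate block 9485 genes were called against 9703, no subunit changed call, and Sgo2b lost its call (limma adjusted p = 0.0871). With 3 libraries per genotype, levels under about 1 FPKM, as for Rad21l in WT, rest on few fragments.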

Other observations

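Of the condensin genes, which compact mitotic chromosomes, 4 of 8 tested rose (limma adjusted p under 0.05), near the 43.0% of all genes, and none fell. Without any 1 Max-KO library 1 rose, where 5768 to 5859 of all 14661 genes tested did. Without any 1 WT library 3 to 5 rose, where 5835 to 6104 of all genes did. Ncapd2, the largest opposite change, was at -0.16 (limma adjusted p = 0.0787) and passed as lower without WT replicate 2 (-0.22, limma adjusted p = 0.0245). Smc2 had 61.3, 62.9 and 58.9 FPKM in Max-KO, against 43.0, 43.4 and 21.7 FPKM in WT (log2 difference 0.81, limma adjusted p = 0.0352), with WT replicate 3 again the lowest. Smc4 and Ncapg rose by 0.78 (limma adjusted p = 0.0442) and 0.51 (limma adjusted p = 0.014). Without WT replicate 3 the differences were 0.49 for Smc2, 0.45 for Smc4 and 0.34 for Ncapg, all past the threshold, and the Smc2 and Smc4 calls were lost without any 1 Max-KO library (limma adjusted p = 0.079 to 0.107). Among the 7 genes of the SMC5-SMC6 complex, which acts in DNA repair, Smc5 rose by 1.10 (limma adjusted p = 0.00489), Smc6 by 0.86 (limma adjusted p = 0.00746) and Eid3, which passed the filter only through Max-KO, by 0.78 (limma adjusted p = 0.00373), and Nsmce2 was lower (-0.36, limma adjusted p = 0.00187). Smc5 had 43.1, 43.8 and 41.0 FPKM in Max-KO, against 22.9, 24.5 and 13.0 FPKM in WT. With WT replicate 3 left out, the differences were 0.82 for Smc5, 0.61 for Smc6, 0.70 for Eid3 and -0.33 for Nsmce2, all past the threshold.

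The axis and synaptonemal complex genes, whose proteins assemble on meiotic cohesin, were measured beside them, and of 8 with 1 FPKM or more on average in both genotypes 7 rose, where 43.0% of all genes did. Sycp1, the central filament, Sycp2 and Sycp3, of the lateral elements, rose by 5.30, 4.21 and 3.96 on the log2 scale (limma adjusted p under 0.05 for each), Sycp2 passing the filter only through Max-KO. Syce2, a central element gene, was lower (-0.63).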
